A study of Mus musculus with 4 samples.

Results

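Rod bipolar cells were taken as the cells with at least 1 UMI (a counted RNA molecule) of Prkca, the gene of protein kinase C alpha, and at least 1 UMI in at least 3 of Pcp2, Trpm1, Grm6, Cabp5, Isl1, Car8 and Lrrtm4. The rule chose 1685 of 36701 cells in 4 droplet single-cell RNA libraries of mouse retina and choroid. It chose 1063 of 7731 cells in the aged CNV library, 404 of 6676 in the aged control library, 129 of 10867 in the young CNV library and 89 of 11427 in the young control library. CNV stands for choroidal neovascularisation, the vessel growth that laser burns through the pigment epithelium induce. All mice were wild type. The aged CNV library came from mice over 18 months old, sampled 3 days after laser burns (532 nm, 200 mW, 0.15 s, 100 µm spot), and the aged control library from mice of that age without lesions. The young CNV library came from mice of 6 to 8 weeks, sampled 3 days after the same laser setting, and the young control library from mice of that age without lesions. Retina and choroid with sclera were digested in papain for 45 min, rods were removed from the retinal suspension with an antibody to CD73, and both suspensions passed a 40 µm mesh and were mixed at 200 cells per µL before loading. The number of animals behind a library is not given in the sources used here. With 1 library per group no difference could be tested, and age or laser and library cannot be told apart. Every interval is a 95% interval that covers counting error only.

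Rod bipolar cells are the second neuron of the night-vision pathway. In darkness, glutamate from rods holds the receptor mGluR6 (Grm6) and the G protein Gαo (Gnao1) active and the cation channel TRPM1 closed, and light, by stopping that glutamate, lets TRPM1 open and the cell depolarise. The axon ends in ribbon synapses on AII amacrine cells, which hand the signal to the cone bipolar circuit, and the kinase PKCα is the usual stain for the cell type.

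The values that chose the cells are given as a description. All 7 genes were detected in 53.6% of the chosen cells in aged CNV, 69.1% in aged control, 64.3% in young CNV and 56.2% in young control, and exactly 3 in 14.6%, 11.4%, 13.2% and 19.1% of them. The chosen cells just inside the limit, with exactly 3 of the 7 genes, had summed 7-gene levels of 987, 2261, 635 and 1481 counts per 1000000 UMIs (CPM) in aged CNV, aged control, young CNV and young control. Cells just outside it, with Prkca and exactly 2 of the genes, had 290, 336, 256 and 476 CPM in the same order. In the young CNV and young control libraries the cells with exactly 3 genes carried 11480 and 13640 CPM of melanocyte markers, against 33.6 and 45.4 CPM in aged CNV and aged control. Trpm1, which melanocytes also express, is 1 of the 7 genes. A stricter set, the 1081 chosen cells with at least 10 UMIs of Prkca and at least 6 of the 7 genes, was therefore followed beside the full set; it was defined after the data were seen and is called Prkca-high. It held 638 cells in aged CNV, 295 in aged control, 92 in young CNV and 56 in young control.

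The label was checked against markers that the rule did not read, as a description. The 9 markers shared by bipolar cells, among them Otx2 and the complexin gene Cplx3, summed to 4948 CPM in aged CNV, 5980 in aged control, 5968 in young CNV and 7157 in young control over all chosen cells. The sum was 6850, 6817, 8165 and 8692 CPM in the Prkca-high cells of these libraries, and 2410, 3303, 1457 and 1815 CPM in the other chosen cells. Cone bipolar markers summed to 356, 356, 365 and 271 CPM in Prkca-high cells, and to 2178, 1845, 902 and 1862 CPM in the other chosen cells. The other chosen cells thus carried more cone bipolar RNA in each library, so the chosen set as a whole is not rod bipolar cells alone. Melanocyte markers summed to 13.6, 19.3, 13.9 and 28.5 CPM in Prkca-high cells, and to 21.9, 37.2, 7890 and 8833 CPM in the others. Another class's markers outweighed the bipolar markers in 177 of 1063 chosen cells in aged CNV, 33 of 404 in aged control, 20 of 129 in young CNV and 17 of 89 in young control, but in only 13, 5, 1 and 2 Prkca-high cells. Fibroblast markers summed to 652, 244, 1523 and 1704 CPM and pigment epithelium markers to 455, 1382, 175 and 2000 CPM in the Prkca-high cells of aged CNV, aged control, young CNV and young control. Rod markers summed to 282, 227, 974 and 2294 CPM in them. A doublet score above 0.2 was found in 11.48%, 12.4%, 6.98% and 3.37% of chosen cells, against 3.57%, 3.67%, 2.79% and 2.42% of all cells of aged CNV, aged control, young CNV and young control. The chosen cells held 12988327, 4975089, 1388188 and 678600 UMIs in the same order, with medians of 10325, 11829, 8880 and 7707 UMIs per cell. Between 14 and 29 cell barcodes were shared by any pair of libraries, and 1 barcode of chosen cells was shared, between aged CNV and aged control.

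The chosen cells made up 13.8% (12.99 to 14.5) of the aged CNV library and 6.05% (5.49 to 6.65) of the aged control library. In young mice they made up 1.19% (0.992 to 1.41) of the young CNV library and 0.779% (0.626 to 0.958) of the young control library. The share was 2.27 times as high (2.02 to 2.55) in aged CNV as in aged control, and 1.52 times as high (1.15 to 2.02) in young CNV as in young control. It was 11.6 times as high (9.64 to 14.0) in aged CNV as in young CNV and 7.77 times as high (6.16 to 9.89) in aged control as in young control. The median depth of all cells was 6875 UMIs in aged CNV, 6428 in aged control, 7223 in young CNV and 2593 in young control, and the rule counts genes detected, which depends on depth. With each cell thinned to 2000 UMIs and shallower cells left out, the shares were 10.4% (723 of 6936 cells), 5.38% (318 of 5908), 1.16% (103 of 8909) and 1.06% (70 of 6591) in that order. The young CNV to young control ratio was then 1.09 (0.796 to 1.497), while the aged CNV to aged control ratio was 1.94 (1.70 to 2.22). Shares depend on the removal of rods and on how much choroid was mixed in, so other retinal neurons give a second scale. That scale differed between libraries as well. Cones made up 7.71% of aged CNV, 14.5% of aged control, 2.16% of young CNV and 2.67% of young control, so fewer cones also raise the number per cone. There were 1.78 chosen cells per cone (1.61 to 1.98) in aged CNV and 0.417 (0.371 to 0.469) in aged control. In young CNV there were 0.549 (0.439 to 0.683) and in young control 0.292 (0.228 to 0.371). Per bipolar cell without Prkca, a set of cells with 0 UMIs of Prkca and at least 3 of the 7 other genes, there were 1.71 (1.54 to 1.89), 2.28 (1.91 to 2.74), 2.12 (1.55 to 2.92) and 8.09 (4.31 to 16.8). On that scale the aged CNV library was the lowest of the 4, and only 11 such cells stood in young control.

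**Figure D1:**
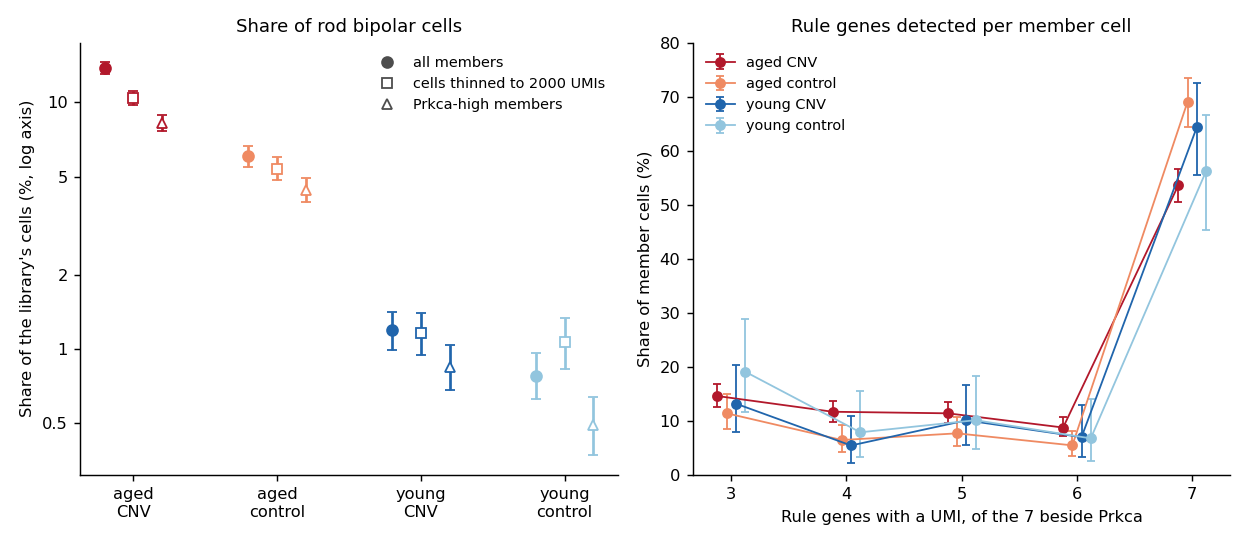
Left, share of each library's cells chosen as rod bipolar cells (percent, log axis) for all chosen cells (filled circles), after thinning to 2000 UMIs (squares) and for Prkca-high cells (triangles), with exact 95% intervals; the aged CNV share of 13.8% is the highest and the young control share of 0.779% the lowest. Right, percent of the chosen cells of each library with 3 to 7 of the 7 rule genes detected; 53.6% to 69.1% of them have all 7.

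The genes of the ON cascade were described first, since they carry the cell's light response. CPM compare 1 gene between libraries and not 1 gene with another, because long and short genes are not captured alike. Trpm1 was at 3616 CPM (3584 to 3649) in aged CNV, 4937 (4875 to 4999) in aged control, 3234 (3140 to 3330) in young CNV and 3294 (3158 to 3433) in young control. Grm6 was at 289, 354, 388 and 492 CPM in the same order, and Gnao1 at 1002, 1419, 1096 and 1325 CPM. Both CNV libraries were thus below their controls for Grm6 and Gnao1 over all chosen cells. In Prkca-high cells Grm6 was at 420 CPM in aged CNV against 406 in aged control, a fold of 1.03 (0.972 to 1.10), and at 548 CPM in young CNV against 600 in young control, 1.09-fold lower (0.947 to 1.26). Gnao1 there was 1.12-fold lower (1.09 to 1.16) in aged CNV and 1.04-fold lower (0.953 to 1.13) in young CNV than in the control of its age. Genes with at least 100 UMIs over both libraries were compared, and a difference of at least 1.5-fold was counted. Of the 13 genes of the cascade list, 13 were compared after laser in aged and 10 in young mice. Grm6, Trpm1 and Pcp2 of this list are also rule genes that chose both sets of cells, so its counts and medians are a description. In aged mice 0 were higher and 2 lower over all chosen cells, where 21.6% of 12286 genes were higher and 4.73% lower. In the young one 0 were higher and 1 lower, where 11.9% of 4279 genes were higher and 5.38% lower. The median log2 ratio of the list was -0.43 in aged and -0.32 in young mice over all chosen cells, beside 0.10 and -0.03 over all genes. In Prkca-high cells it was -0.12 and -0.05, beside 0.08 and 0.00.

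The cascade gene higher by 1.5-fold after laser in Prkca-high cells of aged mice was Gnb3, the G protein beta subunit that pairs with Gαo in ON bipolar cells. Gnb3 was at 1720 CPM in aged CNV and 1145 CPM in aged control in Prkca-high cells, 1.503-fold higher (1.45 to 1.56), and at 1322 (1302 to 1342) and 1075 CPM (1046 to 1104) over all chosen cells. In young mice it was at 1598 CPM in young CNV and 1341 CPM in young control in those cells, 1.19-fold higher (1.09 to 1.31). Gng13, the gamma subunit of the same G protein, was at 643 CPM (630 to 657) in aged CNV, 870 (844 to 896) in aged control, 1575 (1510 to 1643) in young CNV and 2377 (2262 to 2496) in young control over all chosen cells. The 2 aged libraries were below both young ones for Gng13, by 2.45-fold (2.34 to 2.57) after laser and 2.73-fold (2.58 to 2.89) between controls. Rgs11, a GTPase-activating protein that ends the Gαo signal, was also low with age, at 94.5 CPM (89.3 to 99.9) in aged CNV and 120 (111 to 130) in aged control, against 188 (166 to 212) in young CNV and 237 (202 to 277) in young control. Rgs7, its partner in that task, went the other way between controls, at 2825 CPM (2779 to 2872) in aged control and 1954 CPM (1850 to 2062) in young control. The orphan receptor Gpr179, which anchors these regulators, was at 451, 657, 434 and 463 CPM in aged CNV, aged control, young CNV and young control, and nyctalopin (Nyx) at 52.8, 67.7, 44.7 and 42.7 CPM. Of these genes Gng13 had the 2 aged libraries lowest and the 2 young ones highest, as did Rgs11.

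Pcp2, a modulator of Gαo that is 1 of the rule genes, was at 1643 CPM (1621 to 1665) in aged CNV, 2722 (2676 to 2768) in aged control, 3312 (3216 to 3409) in young CNV and 4503 (4345 to 4666) in young control. Prkca itself was at 5806, 9326, 4922 and 6158 CPM in the same order, and in Prkca-high cells at 9768, 11840, 6820 and 6957 CPM. Lrrtm4, a synaptic adhesion protein that in mouse rod bipolar cells is tied to the inhibitory receptors of the axon terminal, was at 2904 CPM (2875 to 2934) in aged CNV and 7022 (6948 to 7096) in aged control. In young mice it was at 2877 CPM (2789 to 2968) after laser and 4274 (4119 to 4432) in the control. Lrrtm4 was therefore lower after laser at both ages, by 2.42-fold in aged and 1.49-fold in young mice, and by 1.84-fold (1.81 to 1.87) and 1.25-fold (1.19 to 1.32) in Prkca-high cells. The calcium-binding protein gene Cabp5 was at 361 CPM in aged CNV and 591 CPM in aged control in Prkca-high cells, and at 463 CPM in young CNV and 495 CPM in young control. Since these genes were part of the choice of cells, their values are a description of what was chosen.

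**Figure D2:**
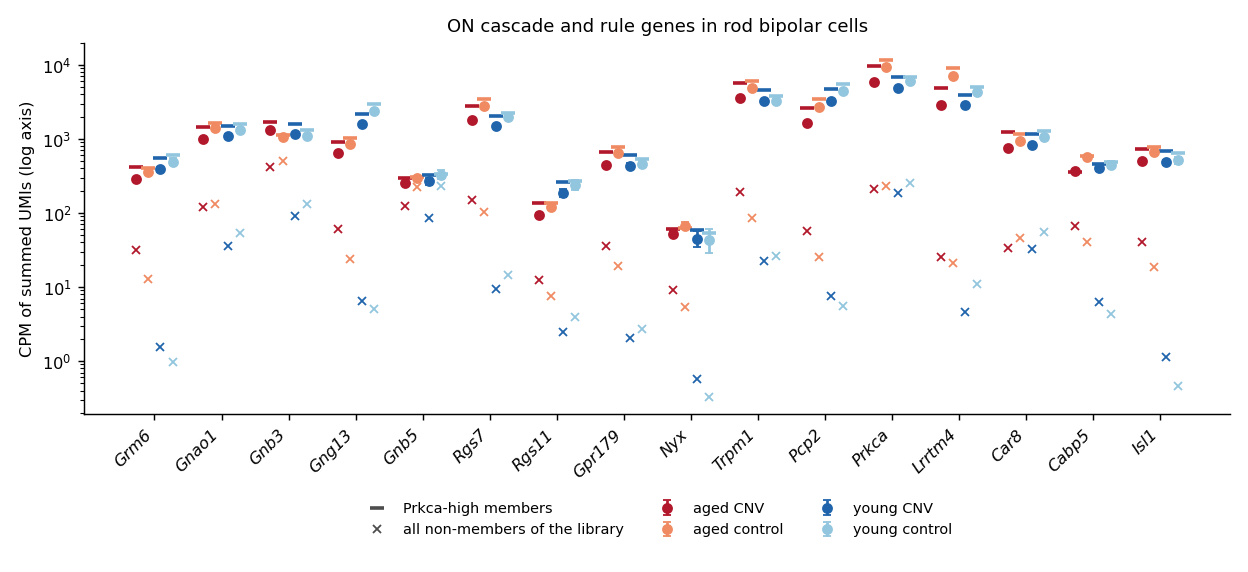
CPM (log axis) of summed UMIs of ON cascade and rule genes in the rod bipolar cells of the aged CNV, aged control, young CNV and young control libraries, with exact Poisson 95% intervals; dashes mark Prkca-high cells and crosses all other cells of the library. Gng13 steps up toward the young libraries, with 643, 870, 1575 and 2377 CPM, while Gnb3 stays between 1075 and 1322 CPM.

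Promoters of 3 rule genes carried the core of the sites bound by the homeodomain factors OTX2 and CRX, the letters TAATCC, which read as GGATTA on the other strand, both factors being expressed in bipolar cells. The search covered both strands of 250 bases before to 50 bases after the RefSeq start of each gene (RefSeq, build GRCm38.p6). The 3 promoters are shown because they belong to a calcium-binding protein, the light-response channel and the bipolar homeodomain factor that defined the cells. Capitals mark the motif, and each sequence is on its gene's strand, 5′ to 3′. Cabp5 lies at chr7:13397905-13398204 on the plus strand, Trpm1 at chr7:64153585-64153884 on the plus strand and Isl1 at chr13:116309639-116309938 on the minus strand.
Cabp5: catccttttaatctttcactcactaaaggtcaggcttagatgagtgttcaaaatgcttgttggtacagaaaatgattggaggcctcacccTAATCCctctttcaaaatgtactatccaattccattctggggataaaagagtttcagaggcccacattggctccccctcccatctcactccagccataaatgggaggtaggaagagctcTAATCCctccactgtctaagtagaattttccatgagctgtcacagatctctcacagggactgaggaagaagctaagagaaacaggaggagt
Trpm1: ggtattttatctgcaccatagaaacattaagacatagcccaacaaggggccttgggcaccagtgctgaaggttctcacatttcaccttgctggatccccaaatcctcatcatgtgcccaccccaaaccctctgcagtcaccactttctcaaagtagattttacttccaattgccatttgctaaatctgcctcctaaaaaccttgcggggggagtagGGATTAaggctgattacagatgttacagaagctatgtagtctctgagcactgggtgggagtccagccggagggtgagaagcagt
Isl1: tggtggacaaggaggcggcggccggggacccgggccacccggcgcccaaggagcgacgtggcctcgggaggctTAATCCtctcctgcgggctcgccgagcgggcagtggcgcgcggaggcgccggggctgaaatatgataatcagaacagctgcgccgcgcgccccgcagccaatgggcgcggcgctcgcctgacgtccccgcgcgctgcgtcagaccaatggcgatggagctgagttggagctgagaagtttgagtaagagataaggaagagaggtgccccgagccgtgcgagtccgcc
The motif stood 2 times in the Cabp5 window and 1 time in each of the Trpm1 and Isl1 windows. It was present in 3 of the 7 rule genes with a promoter in the table, 2 of 10 ON cascade genes, 4 of 17 ribbon genes, 3 of 13 bipolar transcription factors and 3 of 7 rod markers. It was present in 1 of 14 genes that led the chosen cells, which are named next, in 0 of 11 immediate early genes, and in 8.14% of 27025 genes. A match is a description of the letters in this window.

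Over all genes, 15 led the chosen cells by their lowest ratio over the rest of the 4 libraries, again as a description because the cells were chosen by RNA. They included Lrrtm4, Tmem196, Kcnmb2, Asic2, Sebox, Kcnh5, Vstm2b, Cntn6, Wscd2, Ano3, Pcp4, Bend4, Ptprr, Pcp2 and Siah3, with lowest ratios between 28.2 for Siah3 and 113 for Lrrtm4. Kcnmb2 encodes a beta subunit of large-conductance calcium-activated potassium channels, Asic2 an acid-sensing channel and Kcnh5 a voltage-gated potassium channel. Sebox, a homeobox gene, was at 122 CPM (116 to 128) in aged CNV, 202 (190 to 215) in aged control, 310 (281 to 341) in young CNV and 398 (352 to 448) in young control. The order of the 4 libraries for Sebox was that of Gng13 and Pcp2, and no neighbours in it overlapped in their intervals. In Prkca-high cells Sebox was 2.16-fold lower (1.94 to 2.41) in aged CNV than in young CNV and 1.94-fold lower (1.69 to 2.22) in aged control than in young control. Pcp4, a calmodulin regulator, was at 1054, 1123, 2166 and 2356 CPM in aged CNV, aged control, young CNV and young control, with both aged libraries below both young ones.

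Among the other bipolar transcription factors, Otx2 was at 269, 343, 338 and 339 CPM and Crx at 140, 166, 146 and 195 CPM in aged CNV, aged control, young CNV and young control. Neither differed by 1.5-fold between the CNV library and the control of its age, or between the ages within a treatment. The list of 18 factors holds the rule gene Isl1. Of the list, 3 of 17 compared were higher and 3 lower in aged CNV than in aged control over all chosen cells. In aged CNV 3 of 17 were higher and 2 lower than in young CNV. Among all genes 21.6% were higher and 4.73% lower in the first of these comparisons, and 19% and 12.3% in the second. Of the list, 16 were compared in Prkca-high cells after laser in aged mice, with 2 higher and 1 lower at 1.5-fold, where 13% of 9926 genes were higher and 3.35% lower. In the young laser comparison 13 were compared, with 0 higher and 1 lower, where 4.99% of 2988 genes were higher and 3.35% lower.

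At the axon terminal, 22 genes of the ribbon and of transmitter release were listed, of which 22 were compared in Prkca-high cells of aged mice after laser. Of these 2 were higher and 1 lower, and of the 18 compared in young mice 0 were higher and 0 lower. The shares among all genes were 13% higher and 3.35% lower in aged and 4.99% and 3.35% in young mice, so the counts of this list were near or below them. The ribbon protein gene Ctbp2 was at 126 CPM (120 to 132) in aged CNV, 145 (135 to 156) in aged control, 150 (130 to 172) in young CNV and 143 (116 to 174) in young control. The vesicular glutamate transporter Slc17a7 was at 291, 303, 260 and 318 CPM, and the calcium channel subunit Cacna1f at 95.01, 99.5, 79.96 and 85.5 CPM, so that neither differed by 1.5-fold between any pair of libraries. Complexin 3 (Cplx3), a regulator of release at ribbon synapses, was at 315 CPM (305 to 325) in aged CNV, 482 (463 to 502) in aged control, 503 (466 to 542) in young CNV and 585 (529 to 646) in young control. It was 1.36-fold lower (1.29 to 1.44) in aged CNV than in aged control in Prkca-high cells, and 1.06-fold lower (0.929 to 1.20) in young CNV than in young control. The scaffold gene Pclo was at 692, 912, 494 and 573 CPM and Rims2 at 1237, 1642, 721 and 1060 CPM, both higher in each aged library than in the young library of the same treatment.

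Inhibition reaches the axon terminal through GABA and glycine receptors. Of 13 genes for these receptors and for chloride transport, 12 were compared by age over all chosen cells. In aged control 6 were higher and 0 lower than in young control, where 14.8% of 7749 genes were higher and 16.8% lower. In aged CNV 4 were higher and 0 lower than in young CNV, where 19% of 11815 genes were higher and 12.3% lower. Gephyrin (Gphn), the scaffold of inhibitory synapses, was at 1294 CPM (1274 to 1314) in aged CNV, 1703 (1667 to 1739) in aged control, 778 (732 to 826) in young CNV and 1074 (998 to 1155) in young control. It was 1.58-fold higher (1.48 to 1.70) in aged CNV than in young CNV and 1.61-fold higher (1.48 to 1.76) in aged control than in young control in Prkca-high cells. The GABA-C receptor subunit Gabrr1, typical of this terminal, was at 176, 271, 246 and 323 CPM and so was not among those higher with age, and Gabrr2 was at 405, 457, 326 and 402 CPM. The glycine receptor subunit Glra1 was at 135, 159, 107 and 106 CPM.

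The laser comparison in aged mice had the most cells. Over all chosen cells 2658 genes were higher and 581 lower in aged CNV than in aged control by 1.5-fold, and 2237 higher and 921 lower with median-of-ratios scaling. Scaling shifted the median of all genes by -0.13 on the log2 scale in this comparison. In Prkca-high cells 1288 of 9926 genes were higher and 333 lower. Several of the genes with the largest differences rested on 1 cell: 98% of the Mzb1 UMIs of aged CNV, and 99% or more of the mast cell protease Cma1 and Tpsb2 UMIs of aged control, came from a single cell each. The same rule was therefore also applied to Prkca-high cells with no cell holding over 10% of a gene's UMIs, a step added after the data were seen. The genes below are from that list or from the fixed gene lists unless stated otherwise. Gap43, a PKC substrate of growing axons, was at 20.4 CPM (18.0 to 23.01) in aged CNV and 3.42 CPM (1.99 to 5.47) in aged control. It was at 11.53 CPM (6.59 to 18.7) in young CNV and at 0 UMIs in young control, where up to 5.44 CPM remain possible. Gap43 was 5.97-fold higher (3.66 to 10.4) in aged CNV than in aged control, and 6.13-fold higher (3.73 to 10.7) in Prkca-high cells. Kcnd3, a subunit of A-type potassium channels, was at 38.0 CPM in aged CNV and 2.90 CPM in aged control in Prkca-high cells and at 26.8 CPM in young CNV with 0 UMIs in young control. Over all chosen cells Kcnd3 was at 66.7, 20.9, 21.6 and 16.2 CPM in aged CNV, aged control, young CNV and young control. A2m, a broad protease inhibitor, was at 179 CPM in aged CNV, 57.8 in aged control, 56.8 in young CNV and 1.90 in young control in these cells. Lynx1, a modulator of nicotinic receptors, was at 158, 52.8, 103 and 77.8 CPM.

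Gria1 and Csmd2 were higher after laser at both ages in Prkca-high cells. Of the fixed list of 16 synaptic adhesion genes, which holds the rule gene Lrrtm4, 3 of 16 were higher and 1 lower in aged CNV over all chosen cells. In young CNV 0 of 11 were higher and 4 lower than in young control. Among all genes 21.6% were higher and 4.73% lower in aged mice, and 11.9% and 5.38% in young mice. In Prkca-high cells 3 of 14 listed genes were higher and 1 lower in aged mice, and 1 of 8 higher and 0 lower in young mice. There 13% of all genes were higher in aged and 4.99% in young mice, and 3.35% lower in each. Gria1, an AMPA receptor subunit, was at 1182 CPM in aged CNV and 592 in aged control in Prkca-high cells, 1.997-fold higher (1.91 to 2.09). In young mice it was at 464 CPM after laser and 271 in the control, 1.71-fold higher (1.41 to 2.08). Csmd2, a synaptic membrane protein, was at 625 CPM in aged CNV and 274 in aged control, 2.28-fold higher (2.13 to 2.44), and at 236 CPM in young CNV and 118 in young control, 2.003-fold higher (1.51 to 2.70). Grm7, the metabotropic glutamate receptor mGluR7, differed in young mice, with 192 CPM in young CNV and 22.8 in young control, 8.42-fold higher (4.70 to 16.6), whereas aged CNV had 93.9 CPM and aged control 71.5 CPM, under 1.5-fold apart. For Gria1 and Csmd2 the ratio had the same direction over all chosen cells, at 1.52 and 1.70 in aged and 1.48 and 1.41 in young mice. Prkcb, the gene of the related kinase PKCβ that some cone bipolar cells use, was at 136 CPM in aged CNV, 57.0 in aged control, 80.3 in young CNV and 11.4 in young control in Prkca-high cells, and cone bipolar markers there were at 271 to 365 CPM in the 4 libraries.

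Genes lower after laser in aged mice included Ano3 and Ptprr, which are among the leading genes above. Lrrtm4 was lower as well, but it is a rule gene and its values are a description. Plpp4, a lipid phosphatase, was at 1.39 CPM (0.821 to 2.19) in aged CNV and 16.7 CPM (13.3 to 20.7) in aged control. Thsd7b was at 26.2 CPM (23.5 to 29.1) in aged CNV and 124 CPM (114 to 134) in aged control, 4.73-fold lower (4.14 to 5.42), and at 1.44 CPM in young CNV and 11.8 CPM in young control. Ano3, an anoctamin, was at 255 CPM (246 to 263) in aged CNV and 717 (694 to 741) in aged control, and at 262 CPM (235 to 290) in young CNV and 435 (387 to 487) in young control. In Prkca-high cells Ano3 was 2.12-fold lower (2.02 to 2.22) in aged CNV and 1.43-fold lower (1.21 to 1.69) in young CNV than in its control. The phosphatase gene Ptprr was 2.07-fold lower (1.98 to 2.17) in aged CNV and 1.55-fold lower (1.34 to 1.80) in young CNV in the same cells. Cep112, a centrosomal protein gene, was 2.11-fold lower (2.04 to 2.18) and 1.41-fold lower (1.25 to 1.59), and it overlaps an annotated antisense gene, so reads of the pair may be mixed. Fstl5, a secreted follistatin relative, was at 1688 CPM in aged CNV and 3209 CPM in aged control, and at 1814 CPM in young CNV and 2151 CPM in young control. Csmd1 and the neuronal transcription factor Mef2c were lower after laser at both ages as well. Mef2c was at 551 CPM in aged CNV and 844 in aged control, 1.53-fold lower (1.46 to 1.60), and at 206 CPM in young CNV and 368 in young control, 1.79-fold lower (1.46 to 2.20).

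**Figure D3:**
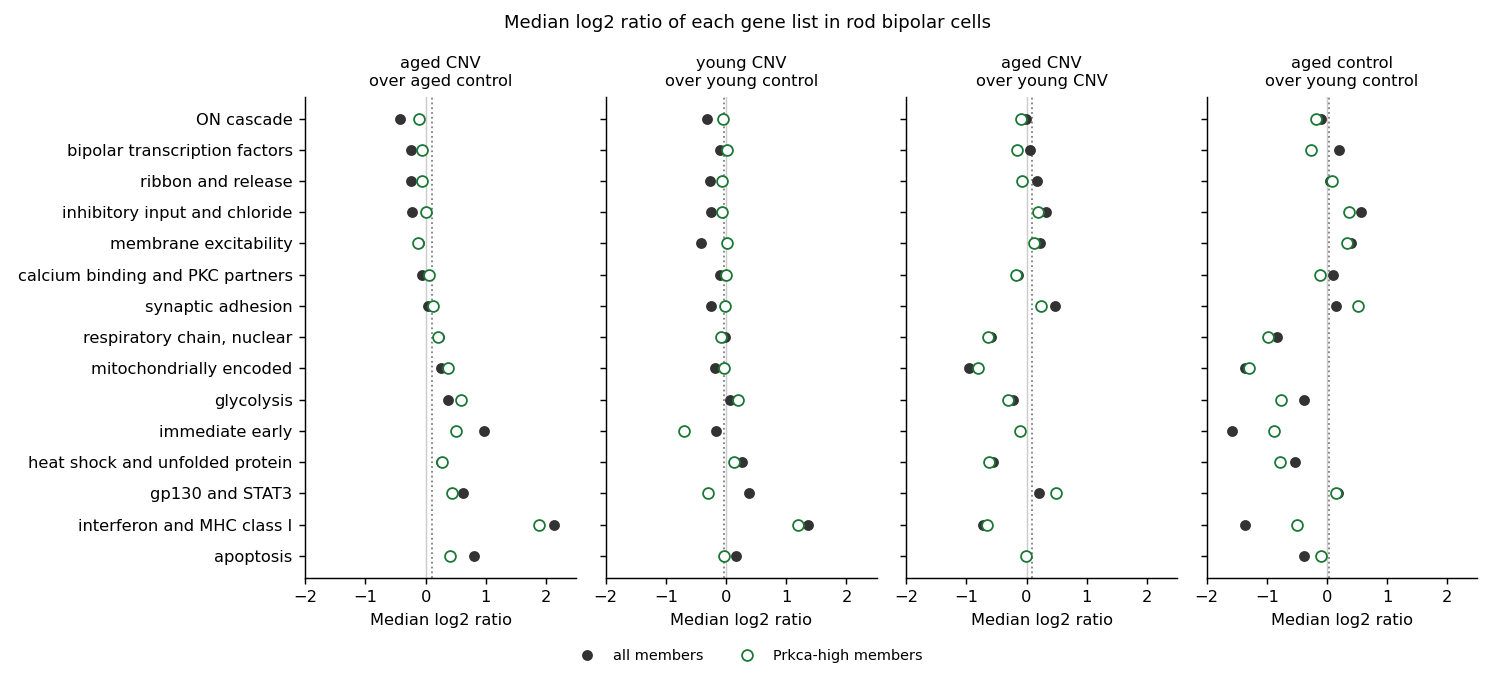
Median log2 ratio of each gene list in rod bipolar cells for the 4 comparisons, over all chosen cells (filled) and Prkca-high cells (open green); the dotted line is the median of all compared genes. The interferon and MHC class I list lies farthest to the right after laser, at 2.14 in aged and 1.36 in young mice, and the mitochondrially encoded and respiratory chain lists lie left of 0 in both age comparisons.

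Genes of the interferon response and of MHC class I antigen presentation were higher after laser at both ages. Of 16 listed genes all 16 were compared in aged mice and all 16 were higher by 1.5-fold, with a median log2 ratio of 2.14 beside 0.10 over all genes. In young mice 8 were compared and 8 were higher, with a median of 1.36 beside -0.03. The list was also higher after laser in other retinal neurons. Its median was 1.70 in aged and 3.15 in young mice in bipolar cells without Prkca, of which young control had 11. In cones it was 1.05 and 0.87. In Prkca-high cells 12 of 12 were higher in aged mice and 4 of 5 in young mice. Among all genes 21.6% were higher in aged and 11.9% in young mice over all chosen cells, and 13% and 4.99% in Prkca-high cells. Summed over the list, the level was 1271 CPM (1252 to 1290) in aged CNV, 326 (310 to 342) in aged control, 2088 (2013 to 2166) in young CNV and 869 (801 to 943) in young control. Irf9, a transcription factor of the interferon pathway, was at 33.9 CPM (30.8 to 37.2) in aged CNV, 6.03 (4.07 to 8.61) in aged control, 31.0 (22.4 to 41.7) in young CNV and 20.6 (11.3 to 34.6) in young control. The MHC heavy chain gene H2-K1 was at 122 CPM in aged CNV and 40.9 in aged control in Prkca-high cells, 2.98-fold higher (2.51 to 3.56), and at 108 CPM in young CNV and 36.0 in young control, 3.001-fold higher (1.83 to 5.19). The light chain gene B2m was at 72.6, 34.6, 169 and 74.0 CPM there in aged CNV, aged control, young CNV and young control. By age, 0 of 7 genes were higher and 5 lower in aged control than in young control, and 0 of 16 were higher and 9 lower in aged CNV than in young CNV. In Prkca-high cells 0 of 5 were higher and 2 lower between controls, and 0 of 12 were higher and 6 lower between CNV libraries. Among all genes 14.8% were higher and 16.8% lower between controls, and 19% and 12.3% between CNV libraries, over all chosen cells. In Prkca-high cells these shares were 14.9% and 17.8%, and 14.6% and 12.5%. The direction of the interferon list between CNV libraries turned in chosen cells thinned to 2000 UMIs, where its median log2 ratio was 0.23, beside -0.72 without thinning. In the Prkca-high cells without leukocyte markers described next, the ratio of sums between CNV libraries was 0.753 (0.473 to 1.28), with 4 cells in young CNV.

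Leukocyte markers, like the interferon list, were higher in each CNV library than in its control, and their part in the result was not tested. The order of 4 single libraries cannot decide that part, with aged CNV highest for leukocyte markers and young CNV highest for the interferon list. The 7 leukocyte markers summed to 993 CPM (976 to 1010) in aged CNV, 233 (220 to 247) in aged control, 405 (372 to 440) in young CNV and 338 (295 to 384) in young control over all chosen cells, and to 514, 212, 336 and 47.4 CPM in Prkca-high cells. None of the 7 was at 0 in any library over all chosen cells, and 2 were at 0 in young control among Prkca-high cells. The cells outside the chosen set had a higher CPM than the chosen cells of their library for each of the 16 interferon and MHC class I genes, in all 4 libraries. In Prkca-high cells without a single UMI of the 7 markers, a subset added after the data were seen, the interferon list summed to 354 CPM in the 200 cells of aged CNV and 182 CPM in the 128 cells of aged control, a ratio of 1.94 (1.70 to 2.23). The difference was thus in the same direction and smaller in cells with no leukocyte marker detected, where 4 of the 16 genes had 100 UMIs and all 4 were higher. The share among all genes was not counted in this subset, so its counts have no background. Only 4 such cells remained in young CNV and 38 in young control, at 470 and 433 CPM.

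**Figure D4:**
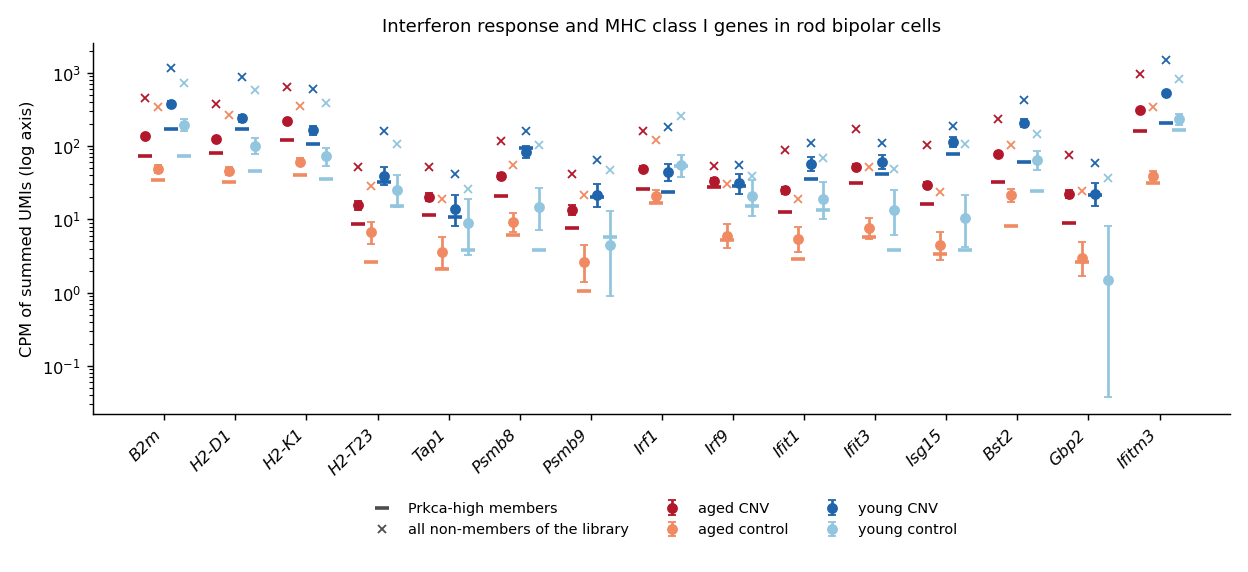
CPM (log axis) of 15 of the 16 interferon response and MHC class I genes in rod bipolar cells of the 4 libraries with exact Poisson 95% intervals; dashes mark Prkca-high cells and crosses all other cells. Each gene is higher in aged CNV than in aged control, and the crosses lie above the points for each gene shown.

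The pathway of the receptor subunit gp130 and its transcription factor STAT3 relays injury cytokines in the retina. Of its 12 listed genes 9 were higher and 0 lower in aged CNV than in aged control over all chosen cells, and 4 of 11 were higher and 0 lower in Prkca-high cells, where 21.6% and 13% of all genes were higher. In young mice 2 of 7 were higher and 0 lower, and in Prkca-high cells 1 of 4 was higher and 1 lower, where 11.9% and 4.99% of all genes were higher. Stat3 was at 273 CPM (264 to 282) in aged CNV, 114 (104 to 123) in aged control, 146 (126 to 167) in young CNV and 102 (79.1 to 129) in young control. Its fold was 2.40 (2.20 to 2.63) in aged and 1.43 (1.08 to 1.91) in young mice, and 2.47 (2.23 to 2.75) and 1.65 (1.18 to 2.34) in Prkca-high cells. Stat3 was also higher in aged CNV than in aged control in cones and in bipolar cells without Prkca, by 0.95 and 1.10 on the log2 scale. Il6st, the gene of gp130 itself, was at 92.5, 69.1, 81.4 and 50.1 CPM. The protease inhibitor Serpina3n is outside this list and was named over all chosen cells, where the 10% limit on 1 cell did not apply. It was at 142 CPM (136 to 149) in aged CNV, 33.4 (28.5 to 38.9) in aged control and 98.7 (82.9 to 117) in young CNV. Of its young CNV UMIs 28.5% came from 1 cell, and it had 0 UMIs in young control. By the lower bound of the exact interval it was at least 17.9-fold higher in young CNV than in young control, and in aged mice it was 4.26-fold higher (3.63 to 5.02). Markers of Müller glia, which also make several of these proteins, were detected in the cells. They summed to 700, 500, 575 and 518 CPM in Prkca-high cells of aged CNV, aged control, young CNV and young control. They outweighed the bipolar markers in 97 of 1063 chosen cells in aged CNV and 9 of 404 in aged control. In young CNV and young control this held for 10 of 129 and 4 of 89. The part of Müller glia in the result was not tested. In the Prkca-high cells without leukocyte markers 1 of 8 genes of the list was higher and 2 lower in aged CNV than in aged control. No share over all genes was counted there. The list summed to 683 CPM in aged CNV and 541 CPM in aged control, a ratio of 1.26 (1.16 to 1.37).

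Immediate early genes, which neurons and glia switch on with activity and with tissue handling, did not go one way. In aged CNV 9 of 13 were higher and 1 lower than in aged control over all chosen cells, with a median log2 ratio of 0.97, and 6 higher and 1 lower with a median of 0.50 in Prkca-high cells. Among all genes 21.6% were higher and 4.73% lower over all chosen cells, and 13% and 3.35% in Prkca-high cells. In the Prkca-high cells without leukocyte markers the direction of the list turned. There 1 of 11 genes was higher and 5 were lower in aged CNV than in aged control, with no share over all genes counted. The list summed to 861 CPM in aged CNV and 1082 CPM in aged control, a ratio of 0.796 (0.745 to 0.850). The median log2 ratio over these 11 was -0.27, and over all 13 without the minimum of UMIs -0.11. In young CNV 0 of 13 were higher and 3 lower than in young control, and in Prkca-high cells 0 of 10 were higher and 6 lower, beside 11.9% higher and 5.38% lower among all genes over all chosen cells and 4.99% and 3.35% in Prkca-high cells. Nr4a1, an orphan nuclear receptor, was lower after laser at both ages, at 31.8 CPM in aged CNV and 82.6 in aged control, and at 65.3 CPM in young CNV and 118 in young control in Prkca-high cells. Atf3, a stress-induced factor of injured neurons, was at 74.1 CPM in aged CNV and 21.6 in aged control, 3.43-fold higher (2.71 to 4.37), and at 43.9 CPM in young CNV and 66.4 in young control, 1.51-fold lower (0.935 to 2.43), in the same cells. Fos was at 156 CPM in aged CNV, 187 in aged control, 290 in young CNV and 469 in young control there. Between aged control and young control 0 of 13 immediate early genes were higher and 10 lower, also in Prkca-high cells, beside 14.8% higher and 16.8% lower among all genes over all chosen cells. Of genes under 3 kb 62.9% were lower there, and of those of 3 to 10 kb 44.5%. In Prkca-high cells these shares were 73.7% and 50.2%. The immediate early genes span 1.52 kb (Ier2) to 20.9 kb (Nr4a1), and the heat shock and unfolded protein genes 1.65 kb (Hspb1) to 19.7 kb (Hsph1). The part of length was not tested. Of 14 heat shock and unfolded protein genes 6 were higher and 0 lower in aged CNV, and 4 of 10 were higher and 0 lower in young CNV, over all chosen cells, while 4 of 11 were lower and 0 higher in aged control than in young control. In Prkca-high cells 4 of 12 were higher and 0 lower in aged CNV than in aged control, and 1 of 8 was higher and 0 lower in young CNV than in young control. There 6 of 9 were lower and 0 higher in aged control than in young control. Among all genes over all chosen cells 21.6% were higher in aged CNV, 11.9% higher in young CNV and 16.8% lower in aged control in these comparisons. In Prkca-high cells the shares were 13%, 4.99% and 17.8%. The small heat shock protein gene Hspb1 was at 24.0, 6.60, 70.7 and 32.3 CPM in Prkca-high cells of aged CNV, aged control, young CNV and young control, and in young CNV 34.0% of its UMIs in all chosen cells came from 1 cell.

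Of 19 glycolytic genes 10 were higher and 0 lower in Prkca-high cells of aged CNV against aged control, with a median log2 ratio of 0.59, where 13% of all genes were higher and 3.35% lower. Over all chosen cells 3 were higher and 0 lower with a median of 0.36, a share below the 21.6% of all genes that were higher there. Gapdh was at 1144 CPM in aged CNV and 705 in aged control, 1.62-fold higher (1.55 to 1.69), and Ldha, which makes lactate, at 167 and 91.3 CPM, 1.83-fold higher (1.62 to 2.06), in Prkca-high cells. In young mice 0 of 13 were higher and 0 lower there, with Gapdh at 2007 CPM in young CNV and 2062 CPM in young control. Summed over the list the level was 5257 CPM in aged CNV, 4016 in aged control, 6539 in young CNV and 6603 in young control over all chosen cells. The aged control library was thus the lowest of the 4, and aged CNV lay between it and both young libraries. In the bipolar cells without Prkca the median of the list was -0.09 in the aged laser comparison, and in cones 0.13.

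Genes of mitochondrial respiration were lower in aged than in young mice. Over all genes 1148 were higher and 1302 lower in aged control than in young control, and 1448 higher and 1051 lower with TMM scaling. Of 22 nuclear genes of the respiratory chain 0 were higher and 20 lower in aged control than in young control by 1.5-fold over all chosen cells, and 0 higher and 21 lower in Prkca-high cells, where 14.9% of 6370 genes were higher and 17.8% lower. Between aged CNV and young CNV 0 were higher and 10 lower, and 0 and 12 in Prkca-high cells, where 14.6% of 9167 genes were higher and 12.5% lower. Cox17, the copper chaperone of cytochrome oxidase, was at 44.3 CPM (40.7 to 48.0) in aged CNV, 52.3 (46.1 to 59.0) in aged control, 167 (146 to 190) in young CNV and 233 (198 to 272) in young control. Uqcrb of complex III was at 142, 130, 375 and 405 CPM and Ndufa1 of complex I at 52.4, 58.5, 171 and 192 CPM. Both aged libraries lay below both young ones for each of these genes. The 13 mitochondrially encoded genes summed to 12350 CPM (12290 to 12410) in aged CNV, 9407 (9322 to 9492) in aged control, 24430 (24170 to 24690) in young CNV and 27270 (26880 to 27670) in young control. Of those compared, 10 of 12 were lower in aged control than in young control and 11 of 13 in aged CNV than in young CNV, with 0 higher in either. Among all genes over all chosen cells 14.8% were higher and 16.8% lower between controls, and 19% and 12.3% between CNV libraries. For mt-Co3 the levels were 2400, 1565, 5092 and 5497 CPM, and aged CNV was 1.53-fold higher (1.496 to 1.57) than aged control.

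Values of the same lists in other retinal neurons, and of all genes by gene length, are given side by side. The median log2 ratio of the nuclear respiratory list between controls was -0.83 in rod bipolar cells, -0.94 in cones and -1.69 in bipolar cells without Prkca, and between CNV libraries -0.58, -0.67 and -0.92. The mitochondrially encoded list was at -1.36 between controls in rod bipolar cells, -0.58 in cones and -2.03 in bipolar cells without Prkca. Among all genes compared in rod bipolar cells between controls, the median log2 ratio was -0.75 for genes under 3 kb, -0.52 for 3 to 10 kb, -0.10 for 10 to 30 kb, 0.15 for 30 to 100 kb, 0.31 for 100 to 300 kb and 0.39 for over 300 kb. Between CNV libraries it ran from -0.43 for genes under 3 kb to 0.49 for those over 300 kb. In cones it ran from -0.68 to 0.61 between controls and from -0.60 to 0.84 between CNV libraries. Of genes under 3 kb, 62.9% were lower in aged control than in young control, and of those over 300 kb 36.8% were higher. Cox7c (1.998 kb), Gng13 (1.93 kb), Sebox (1.57 kb) and Cox17 (5.78 kb), lower with age, are short. Rgs7 (434 kb) and, as a description, the rule gene Lrrtm4 (791 kb), both higher in aged control, are long. The laser comparisons showed a smaller spread, from 0.33 for genes under 3 kb to 0.12 for genes over 300 kb in aged mice and from 0.12 to -0.23 in young mice. The share of ribosomal protein UMIs, from short genes, was 3.51% in aged CNV, 2.30% in aged control, 4.34% in young CNV and 4.07% in young control in Prkca-high cells. The part of gene length in the age differences was not tested.

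**Figure D5:**
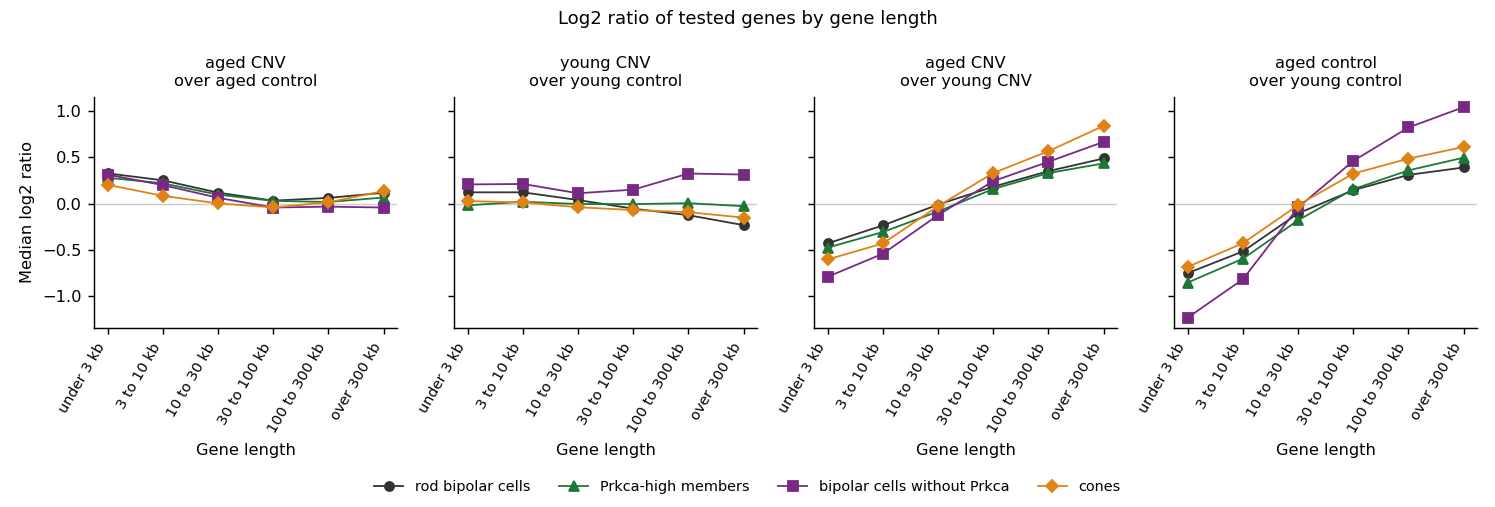
Median log2 ratio of compared genes by gene length in 4 sets of cells, rod bipolar cells, Prkca-high cells, bipolar cells without Prkca and cones, for the 4 comparisons. Between aged and young libraries the line rises with length in each set of cells, in rod bipolar cells from -0.75 to 0.39 between controls, while in the laser comparisons it is flatter.

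Genes higher with age included long neuronal genes and some that were nearly absent in young cells. Thsd7b was at 42.6 CPM in aged CNV and 159 in aged control, against 1.07 in young CNV and 3.79 in young control, in Prkca-high cells. It was 41.9-fold higher (11.6 to 347) in aged control than in young control, and the gene spans 946 kb. Spag16, which codes for a protein of the ciliary axoneme and spans 898 kb, was at 145 CPM in aged CNV, 199 in aged control, 23.6 in young CNV and 43.6 in young control. Wipf3, an actin regulator of 74.6 kb, was at 57.8, 88.1, 19.3 and 11.4 CPM in the same order. Dpp6, an auxiliary subunit of A-type potassium channels, was 2.27-fold higher (2.05 to 2.51) in aged CNV than in young CNV and 2.56-fold higher (2.25 to 2.92) in aged control than in young control. Over all chosen cells, the genes named as lowest with age included the pigment cell genes Pmel, Tyrp1 and Mlana. These are the melanocyte markers that the young cells outside the Prkca-high set carried, and 3 of 8 higher and 2 of 8 lower genes named between controls kept a 1.5-fold difference in Prkca-high cells. Over all chosen cells rod markers summed to 554 CPM in aged CNV, 513 in aged control, 997 in young CNV and 2875 in young control.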

How the data were processed

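The deposited table holds whole-number UMI counts of 24783 genes in 36701 cells, made by the authors. Cell Ranger, Seurat 4.1.1 and build mm10 are named, per the submitters' processing notes, and no other step or filter on cells is given in the sources used here. Each cell's library was read from its name, with e taken as aged and y as young. Counts were summed over the chosen cells of each library and divided by all their UMIs to give CPM. Poisson intervals of levels, Clopper-Pearson intervals of shares and conditional binomial intervals of ratios are exact and cover counting error only. UMIs of 1 cell are not independent samples. Ratios needed at least 100 UMIs over both libraries, 1.5-fold was the size counted, and a library at 0 UMIs was set to 3 counts.

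Genes were named by fixed rules. These were the rule genes and the ON cascade, the 15 leading genes with at least 100 CPM in every library, per comparison the 8 genes a side whose interval bound lay farthest from 0 and whose level in the chosen cells of the higher library was at least that of its other cells, and up to 4 a list. The Prkca-high cells, the naming of up to 16 genes a side in them with at most 10% of UMIs from 1 cell, and the subset without leukocyte markers were added after the data were seen. The members and lists were chosen with earlier results of these data known. Cones had at least 4 of 7 cone genes. Doublets were scored with Scrublet and left in, and leaving out scores above 0.2 was an alternative. The fold step was tested on simulated data. Alternatives were other thresholds, thinning, TMM (edgeR 4.0.16) and median-of-ratios scaling (DESeq2 1.42.0), neither used for a test, with R 4.3.3. Other steps used Python 3.11.15, numpy 2.4.6, pandas 2.3.3, scipy 1.17.1, scanpy 1.11.5 and matplotlib 3.10.9. Gene lengths and promoters are from RefSeq. Some genes are not reported here, though they remain in the counts and sums of their lists.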

Additional observations from a re-analysis of the deposited data

Results flagged for a closer look

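Among the listed and named genes compared at both ages, 3 differed by at least 1.5-fold in opposite directions in young and aged mice over all chosen cells, and the difference between the ages was not tested. Nlgn1, a synaptic adhesion gene, had a log2 ratio of 1.38 for aged CNV over aged control and -1.21 for young CNV over young control, and 50.2% of its UMIs in aged control came from 1 cell. The opposite directions of Nlgn1 were not seen in Prkca-high cells, where the ratio was 3.04 in aged and 1.84 in young mice, nor with at least 4 of the 7 genes, where it was 1.09 and 0.49. Dusp1, an immediate early phosphatase, had 1.44 in aged and -0.69 in young mice, and 0.74 and -0.37 in Prkca-high cells. Dct, a melanocyte gene, had -1.09 in aged and 0.97 in young mice, and -1.03 and -1.15 in Prkca-high cells. Melanocyte markers summed to 17.2, 23.5, 2593 and 1994 CPM in the chosen cells of aged CNV, aged control, young CNV and young control.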

How the results depend on the processing

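No paired analysis was possible because each group has 1 library, and no result comes from a test. Other settings of the rule or depth moved the shares and the counts of genes, and each ratio of shares given here stayed above 1. In aged CNV, aged control, young CNV and young control the chosen share was 8.25%, 4.42%, 0.847% and 0.490% for Prkca-high cells, and 19.0%, 8.37%, 2.35% and 1.64% with 2 of the 7 genes. It was 11.6% and 5.44% in aged CNV and aged control with 2 UMIs of Prkca, 11.7% and 5.36% with 4 of the 7 genes, 12.6% in aged CNV without doublets, and 8.80%, 4.74% and 0.971% in aged CNV, aged control and young CNV when thinned to 1000 UMIs. Thinned to 2000 UMIs it was 10.4%, 5.38% and 1.06% in aged CNV, aged control and young control, and thinned to 4000 UMIs 7.10% in aged control and 1.18% in young control. The aged CNV to aged control ratio of shares was 1.87 for Prkca-high cells and 1.86, 1.94 and 1.95 when thinned to 1000, 2000 and 4000 UMIs. The young CNV to young control ratio was 1.09 and 1.11 at 2000 and 4000 UMIs. The aged to young ratio between CNV libraries was 8.10 with 2 of the 7 genes and 9.06 and 9.02 at 1000 and 2000 UMIs, and between controls 5.12 with 2 of the 7 genes and 5.07 and 6.00 at 2000 and 4000 UMIs.

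Counts of higher and lower genes are given in that order for aged CNV over aged control, aged CNV over young CNV, aged control over young control and young CNV over young control. With 2-fold they were 1556 and 132, 1116 and 543, 424 and 448, and 248 and 60. With no minimum they were 5020 and 1786, 3715 and 3022, 2679 and 3769, and 2885 and 2071. In chosen cells thinned to 2000 UMIs they were 641 and 217, 851 and 499, 321 and 239, and 39 and 33. In Prkca-high cells they were 1288 and 333 for the aged laser comparison, 149 and 100 for the young one, and 1336 higher between CNV libraries. With 200 UMIs they were 658 and 714 between controls and 216 and 96 after laser in young mice, and with 50 UMIs 1954 lower between controls and 981 and 545 after laser in young mice. With 4 of the 7 genes the young laser counts were 210 and 120. TMM and median-of-ratios scaling moved the median of all genes by -0.11 and -0.13 on the log2 scale in the aged laser comparison, and gave 874 and 921 lower genes. The cause of these differences was not tested.

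Some single genes changed sign (log2 ratios; the cause was not tested). In Prkca-high cells, young CNV over young control became 1.18 for Lrrc4c, -0.42 for Nfix, -0.17 for Nfib, 1.84 for Nlgn1, 0.75 for Cadm2 and -0.47 for Cebpd. There aged CNV over aged control became -0.23 for Plk2, and the immediate early list's median became -0.11 without leukocyte markers. Aged control over young control became -0.52 for Ryr3, -0.62 for Unc13c, 0.48 for Dct, 0.63 for Mgll, -0.033 for Nfia, -1.48 for Rab3c, -0.013 for Atp1b1 and 0.30 for Cadm2. Aged CNV over young CNV became -0.25 for Egfem1, 0.18 for Mlana, 0.59 for Dct, 0.82 for Oca2, -1.21 for Rax, -0.34 for Cplx4, 1.42 for Atp1b1 and -0.49 for Ncam2. With 4 of the 7 genes, young CNV over young control became -0.26 for Nfix, 0.49 for Nlgn1 and 0.40 for Cadm2. Aged control over young control became 0.37 for Dct, 2.84 for Chsy3, 0.92 for Mgll, 0.97 for Ednrb, 1.19 for Nlgn1 and 0.50 for Cadm2. Aged CNV over young CNV became 0.29 for Dct, 1.14 for Oca2, -0.11 for Rax, 3.75 for Atp1b1 and 0.64 for Ldhb. In thinned cells, young CNV over young control became -0.18 for Ifit1bl1, -0.056 for Nfib and -0.31 for Il6st. Aged control over young control became -0.38 for Atp1b1, 2.45 for Ddit3 and -0.031 for Osmr. Aged CNV over young CNV became 0.23 for the interferon list's median, -0.34 for Mzb1, -0.21 for Glrb, 1.21 for Atp1b1, -0.14 for Cabp2, -0.081 for Bcl3, 0.13 for Ldhb and -0.081 for Plk2. Without doublets Atp1b1 was at -0.63 for aged control over young control.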

Other observations

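Genes of cell death and of the p53 response were also compared after laser. Of 15 apoptosis genes 13 were compared in aged mice, with 8 higher and 1 lower in aged CNV than in aged control by 1.5-fold and a median log2 ratio of 0.80, beside 0.10 over all genes, of which 21.6% were higher and 4.73% lower. In Prkca-high cells 4 of 10 were higher and 0 lower, with a median of 0.40, where 13% of all genes were higher. The median was 0.37 in bipolar cells without Prkca and -0.03 in cones. Mcl1, an anti-apoptotic relative of Bcl2, was at 124 CPM (118 to 130) in aged CNV and 65.9 CPM (59.0 to 73.5) in aged control, 1.88-fold higher (1.67 to 2.13). Bcl2 was at 37.3 CPM in aged CNV and 21.3 CPM in aged control, 1.75-fold higher (1.42 to 2.18). Cdkn1a, the cell cycle inhibitor p21, was at 40.0 CPM (36.6 to 43.6) in aged CNV and 10.5 CPM (7.81 to 13.7) in aged control, 3.82-fold higher (2.87 to 5.19), and 2.14-fold higher in Prkca-high cells. Of the 10 senescence and p53 genes 5 of 7 were higher and 0 lower there over all chosen cells, and 2 of 5 in Prkca-high cells. Leukocyte markers were at 993 CPM in aged CNV and 233 CPM in aged control in the same cells, and their part in these differences was not tested.

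Counts for synaptic adhesion, membrane excitability and calcium binding genes are given beside the share among all genes. Lrrtm4 of the adhesion list and Prkca, Cabp5 and Car8 of the calcium binding list are rule genes. Of 16 adhesion genes 7 were higher and 0 lower in aged CNV than in young CNV, and 2 higher and 2 lower of 14 in Prkca-high cells, where 19% of all genes were higher over all chosen cells and 14.6% in Prkca-high cells. Nrxn3, a presynaptic neurexin of 1612 kb, was at 11860 CPM in aged CNV, 13750 in aged control, 7071 in young CNV and 8456 in young control. Of 13 excitability genes 3 of 8 were higher and 0 lower in aged control than in young control, and 0 of 6 were higher or lower in Prkca-high cells, where 14.8% and 14.9% of all genes were higher. Of 16 calcium binding and PKC partner genes 4 of 15 were higher and 2 lower in aged CNV than in aged control, and 2 of 11 were higher and 0 lower in young CNV than in young control, near the 21.6% and 11.9% of all genes that were higher in these comparisons.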
